A study of Mus musculus with 18 samples.

Results

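Described here are 10 genes of the cell surface machinery that binds fibroblast growth factors (FGFs): the receptor genes Fgfr1, Fgfr2, Fgfr3, and Fgfrl1, the glypican genes Gpc1, Gpc4, and Gpc6, and the syndecan genes Sdc1, Sdc2, and Sdc4. They were chosen by name, with earlier results of these data known. The genes were found in the count table through the Ensembl identifiers that GENCODE pairs with these symbols on the mouse genome build GRCm38. They are 10 of the 48023 genes in the table, and 10 of 10 had enough counts to be tested, as had 15071 genes in all. The cells were immortalized murine brown preadipocytes, an undifferentiated precursor line of brown fat that was made with the SV40 T antigen and stands for a single line. One arm received vehicle (Veh) and the other recombinant FGF6 at 200 ng/ml, in growth medium with serum, for 4, 8, or 24 h. These 6 groups held 3 RNA libraries each, and the 18 libraries had total counts between 24327816 and 33471980. Nothing states that the 3 libraries of a group came from separate cultures, so the p-values measure the spread between these libraries, which may be technical. Veh replicate 3 at 24 h stood apart from its replicates. The chi-square of the counts over genes, per degree of freedom, was 34.5 and 37.6 for its 2 pairs and 2.34 to 7.05 for the other 16 pairs of replicates.

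FGFs of the paracrine kind signal through receptor tyrosine kinases on the surface of the target cell. The ligand holds on to heparan sulfate, a sulfated sugar chain, and the chain stabilizes the complex of ligand and receptor. Heparan sulfate is carried by core proteins, of which the glypicans are attached to the membrane by a lipid anchor and the syndecans span it. Expression of receptors and core proteins helps to set which FGFs a preadipocyte can receive. FGF6 is a member of the FGF4 subfamily known from skeletal muscle, and the question of the design was how the cells' transcripts change after FGF6 over time.

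Expression is given as CPM, the count of a gene relative to the TMM-scaled total of its library. Where the levels of different genes are compared, CPM was divided by the exonic length of the gene in kilobases, which gives FPKM. Differences are log2 fold changes ± SE from edgeR's quasi-likelihood test, and a gene was called changed at a Benjamini-Hochberg adjusted p under 0.05 over all 15071 genes. At 4 h, 5 of the 10 genes were higher with FGF6 and 5 were lower, and 28.6% of all genes tested were called higher and 34.2% lower. At 8 h, 5 were higher and 3 lower, against 32.4% higher and 38.4% lower among all genes. At 24 h, 4 were higher and 5 lower, against 35.9% and 37.9%. Most genes tested were called at each time, so the number of calls says little about the 10 genes, and their sizes are given. The median absolute log2 fold change of the 10 genes was 0.73 at 4 h, 0.50 at 8 h, and 0.33 at 24 h, while that of all genes was 0.32, 0.41, and 0.48. Since the 10 genes were chosen with earlier results of these data known, this contrast is a description alone. Without Veh replicate 3 at 24 h, the library that stood apart, 7 in place of 9 of the 10 genes were called for FGF6 against Veh at 24 h, and the calls of Fgfrl1 (-0.053, adjusted p = 0.357) and Sdc2 (-0.058, adjusted p = 0.225) were lost. For Veh from 8 to 24 h, 8 in place of 9 were called, and Fgfrl1 was lost (0.113, adjusted p = 0.0673). The 7 calls of a difference in the FGF6 effect between 8 and 24 h were kept, and no log2 value of the 10 genes moved by more than 0.087.

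The labelled cell type was checked against marker genes. Of 9 stromal and preadipocyte markers, 8 had a mean of at least 1 CPM, and Dlk1 was at 0 in all 18 libraries. Of 6 adipocyte markers, Fabp4 alone had a mean of at least 1 CPM over the 18 libraries. Plin1, which coats lipid droplets, was at 1.71 ± 0.38 CPM (SD, n = 3) in Veh at 4 h and 1.21 ± 0.22 CPM in Veh at 8 h, and lower in the other groups. Ucp1, the uncoupling protein of brown fat, was at 0 in 15 libraries and at 0.739 ± 0.158 CPM (SD, n = 3) after 24 h of FGF6. The summed stromal markers moved with the treatment, from 1233 to 1458 CPM in the Veh libraries to between 411 and 1005 CPM in the FGF6 libraries. Pdgfrb, Pdgfra, and Ly6a make up most of this sum, and Cd34, on the same list, went the other way at 24 h, with 16.5 ± 0.916 CPM in Veh and 43 ± 3.37 CPM in FGF6 (SD, n = 3). The other lists were low. Skeletal muscle markers summed to 5.75 to 8.96 CPM with Veh and 1.61 to 4.68 CPM with FGF6, endothelial markers to 0.377 to 1.67 and 1.96 to 5.65 CPM, immune markers to 6.6 to 12.1 and 3.06 to 17.4 CPM, and epithelial markers to at most 0.42 CPM. Group means were at most 0.18 CPM for the endothelial marker Pecam1 and 0.025 CPM for the immune marker Ptprc, while the endothelial Cdh5 reached 3.59 CPM after 24 h of FGF6. The immune marker Cd68 made up most of the immune sums, with 11.1 ± 0.457 CPM in Veh and 16.5 ± 0.217 CPM in FGF6 at 4 h (SD, n = 3). The part of these markers in the results below was not tested. In RNA from a whole culture, fewer cells of a type and less RNA per cell cannot be told apart.

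**Figure D1:**
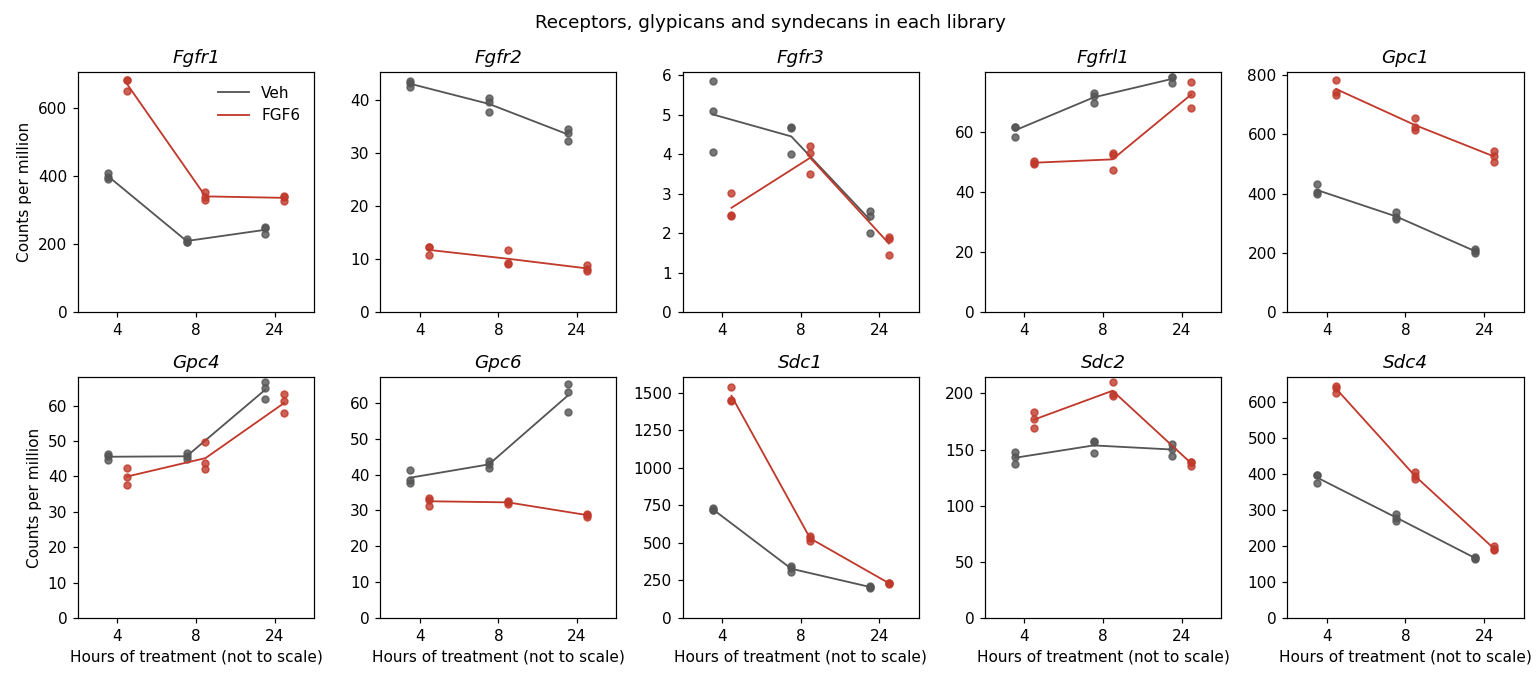
Expression of the 10 genes in CPM (vertical axes, each from 0) in every library, by hours of treatment (horizontal axes, not to scale), with points for the 3 libraries of a group and lines through the group means. Gray is Veh and red is FGF6. Fgfr2 and Gpc6 stayed below Veh and Fgfr1, Gpc1, Sdc1, and Sdc4 above it at each time, and Sdc2 lay above Veh at 4 and 8 h and below it at 24 h.

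Of the transcripts of signaling receptors, Fgfr1 was the most abundant and its lead widened with FGF6. Fgfr1 encodes the receptor most widely found in mesenchymal cells (ENSMUSG00000031565, chr8:25513654-25575718, plus strand, 9875 exonic bases). In the Veh libraries, Fgfr1 stood at 398, 412, and 394 CPM at 4 h, 208, 216, and 206 CPM at 8 h, and 249, 250.1, and 229.6 CPM at 24 h. In the FGF6 libraries, it stood at 652, 684, and 683 CPM at 4 h, 353, 332, and 339 CPM at 8 h, and 327, 341, and 343 CPM at 24 h. All FGF6 libraries lay above the Veh libraries of the same time, and in both arms the 4 h libraries were the highest. The FGF6 effect on Fgfr1 was 0.75 ± 0.036 at 4 h, 0.70 ± 0.037 at 8 h, and 0.47 ± 0.037 at 24 h on the log2 scale, which is 1.68-, 1.63-, and 1.39-fold (edgeR adjusted p = 2.61e-15, 6.53e-15, and 1.37e-11).

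Fgfr1 shares 164 of its exonic bases with Gm16159 on the other strand, which had 1 to 5 counts per library. Fgfr1 had at least 5462 counts per library, the fewest being in Veh replicate 3 at 24 h. Fgfr3, described below, shares 998 bases with G630022F23Rik on the other strand, which had 0 to 2 counts per library.

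Fgfr2 was the gene of the 10 with the largest decrease after FGF6, at each of the 3 times. It encodes the receptor that is better known from epithelia (ENSMUSG00000030849, chr7:130162451-133123350, minus strand, 10328 exonic bases). With vehicle, expression of Fgfr2 was 42.5, 43.6, and 43.3 CPM at 4 h, 37.8, 39.7, and 40.4 CPM at 8 h, and 32.4, 33.9, and 34.5 CPM at 24 h. With FGF6, the values were 12.3, 10.7, and 12.3 CPM at 4 h, 9.21, 11.8, and 9.33 CPM at 8 h, and 8.17, 7.72, and 9.03 CPM at 24 h. The highest FGF6 library was far below the lowest Veh library, and the separation was already complete at 4 h. Expression of Fgfr2 was 3.67-fold lower at 4 h, 3.87-fold lower at 8 h, and 4.04-fold lower at 24 h (log2 fold changes -1.88 ± 0.07, -1.95 ± 0.072, and -2.02 ± 0.076, edgeR adjusted p = 1.24e-17, 4.92e-18, and 5.24e-18). For comparison, 90% of all genes tested had an absolute log2 fold change of at most 1.12 at 4 h, 1.46 at 8 h, and 1.97 at 24 h. Neither change of the FGF6 effect on Fgfr2 between times was called, with log2 differences of -0.077 ± 0.103 from 4 to 8 h (adjusted p = 0.63) and -0.061 ± 0.108 from 8 to 24 h (adjusted p = 0.686). The annotated extent of Fgfr2 includes a long transcript model that shares 314 exonic bases with Ctbp2 on the same strand, a gene with 1210 to 1740 counts per library.

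Fgfr3 had the fewest reads of the 10 genes, 41 to 181 per library. It encodes a receptor best known from cartilage and brain (ENSMUSG00000054252, chr5:33721674-33737068, plus strand, 7158 exonic bases). Vehicle libraries gave Fgfr3 values of 5.87, 5.1, and 4.07 CPM at 4 h, 4.67, 4.01, and 4.69 CPM at 8 h, and 2.45, 2.56, and 2.02 CPM at 24 h. FGF6 libraries gave 2.44, 3.03, and 2.48 CPM at 4 h, 3.52, 4.2, and 4.03 CPM at 8 h, and 1.86, 1.47, and 1.91 CPM at 24 h. FGF6 and Veh libraries did not overlap at 4 h and at 24 h and did at 8 h. FGF6 lowered Fgfr3 at 4 h, by 1.88-fold (log2 fold change -0.91 ± 0.151, edgeR adjusted p = 1.01e-05). At 8 h the difference was -0.19 ± 0.145 with an adjusted p of 0.252. At 24 h it was -0.44 ± 0.182 with an adjusted p of 0.0335, and this call was lost with DESeq2, another count test, with limma-voom, the method of the study, and without any 1 of 5 of the 6 libraries, the exception being Veh replicate 3 (adjusted p between 0.029 and 0.173 over all alternatives). The FGF6 effect on Fgfr3 differed between 4 and 8 h by 0.73 ± 0.21 (adjusted p = 0.0101).

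Receptors 1 to 3 exist in IIIb and IIIc forms that use different exons for the third immunoglobulin domain and bind different FGFs, and counts per gene do not separate them. In the study, knocking down Fgfr3 significantly lowered the induction of Ucp1 by FGF6, and knocking down Fgfr1, Fgfr2, or Fgfr4 did not. Transcript levels do not show which receptor acts. The primers that the study used for the Fgfr3 forms show where these forms part. Both forward primers fall in the same exon, chr5:33730144-33730334, and the reverse primers fall in neighboring exons, chr5:33731281-33731431 for Fgfr3b and chr5:33732117-33732261 for Fgfr3c (GRCm38, all exons on the plus strand). They are given 5′ to 3′ with the reverse primers along the minus strand, in lower case.
Fgfr3b forward, chr5:33730309-33730328: gcacgccctacgtcactgta
Fgfr3b reverse, chr5:33731294-33731312: gcgtctgcctccacattct
Fgfr3c forward, chr5:33730306-33730321: acggcacgccctacgt
Fgfr3c reverse, chr5:33732126-33732146: ctccttgtcggtggtgttagc
Of 13 protein-coding Fgfr3 transcripts in GENCODE, 4 contained the site of the Fgfr3b reverse primer, 5 that of the Fgfr3c reverse primer, 0 contained both, and 4 contained neither. All of them feed the same row of the count table, so the values for Fgfr3 above are sums over the forms.

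Fgfrl1 encodes a receptor-like protein that binds FGFs and heparin and lacks the kinase domain (ENSMUSG00000008090, chr5:108692382-108706924, plus strand, 2782 exonic bases). Fgfrl1 under vehicle was measured at 61.6, 61.4, and 58.4 CPM at 4 h, 71.8, 73, and 69.5 CPM at 8 h, and 76.3, 78.1, and 78.3 CPM at 24 h. Under FGF6 the same gene was measured at 50.2, 49.5, and 49.4 CPM at 4 h, 52.2, 47.3, and 53 CPM at 8 h, and 67.9, 72.7, and 76.5 CPM at 24 h. The groups were apart at 4 and 8 h, and at 24 h the highest FGF6 library lay within the Veh range. FGF6 lowered Fgfrl1 by 1.22-fold at 4 h and 1.41-fold at 8 h (log2 fold changes -0.28 ± 0.047 and -0.49 ± 0.046, edgeR adjusted p = 9.40e-06 and 6.44e-10). At 24 h the log2 difference was -0.10 ± 0.045 with an adjusted p of 0.0489, and that call was lost without any 1 of the 6 libraries (to -0.012 without FGF6 replicate 1), with DESeq2, with the replicate number as a block, and in a fit of the groups compared alone.

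Counted per length, the composition of the signaling receptors shifted toward Fgfr1. Of the summed FPKM of Fgfr1 to Fgfr4, Fgfr1 held 89.2 ± 0.191% (SD, n = 3) at 4 h, 82.8 ± 0.655% at 8 h, and 87.2 ± 0.674% at 24 h with Veh, and 97.8 ± 0.0915%, 95.7 ± 0.545%, and 97 ± 0.253% with FGF6. The share of Fgfr2 was 9.17 ± 0.191%, 14.8 ± 0.506%, and 11.5 ± 0.785% with Veh and 1.64 ± 0.15%, 2.72 ± 0.451%, and 2.29 ± 0.166% with FGF6. In each library, the Fgfr1 level was thus 5.33 to 9.88 times the Fgfr2 level with Veh and 29.4 to 66.6 times with FGF6. Fgfr3 held at most 2.43 ± 0.256% of the sum, in Veh at 8 h, and at least 0.531 ± 0.0588%, in FGF6 at 4 h. Fgfr4, the receptor of liver, had 0 to 5 counts per library and was not tested. Fgfrl1, which lacks the kinase, is not in this sum. With Fgfrl1 in place of Fgfr4, Fgfr1 held 41.4 ± 0.236% in Veh at 8 h, where Fgfrl1 held 50 ± 0.402%, and 77.9 ± 0.612% in FGF6 at 4 h, the lowest and the highest of its 6 group shares. These shares rest on annotated exonic lengths, 9875 bases for Fgfr1 and 2782 for Fgfrl1. Without division by length, Fgfr1 had 210 CPM and Fgfrl1 71.4 CPM in Veh at 8 h. The summed level of Fgfr1 to Fgfr4, given without a test, went between Veh and FGF6 from 45.5 ± 1.02 to 69.7 ± 1.8 FPKM at 4 h, from 25.7 ± 0.5 to 36.1 ± 0.964 FPKM at 8 h, and from 28.2 ± 1.15 to 35.2 ± 0.887 FPKM at 24 h.

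**Figure D2:**
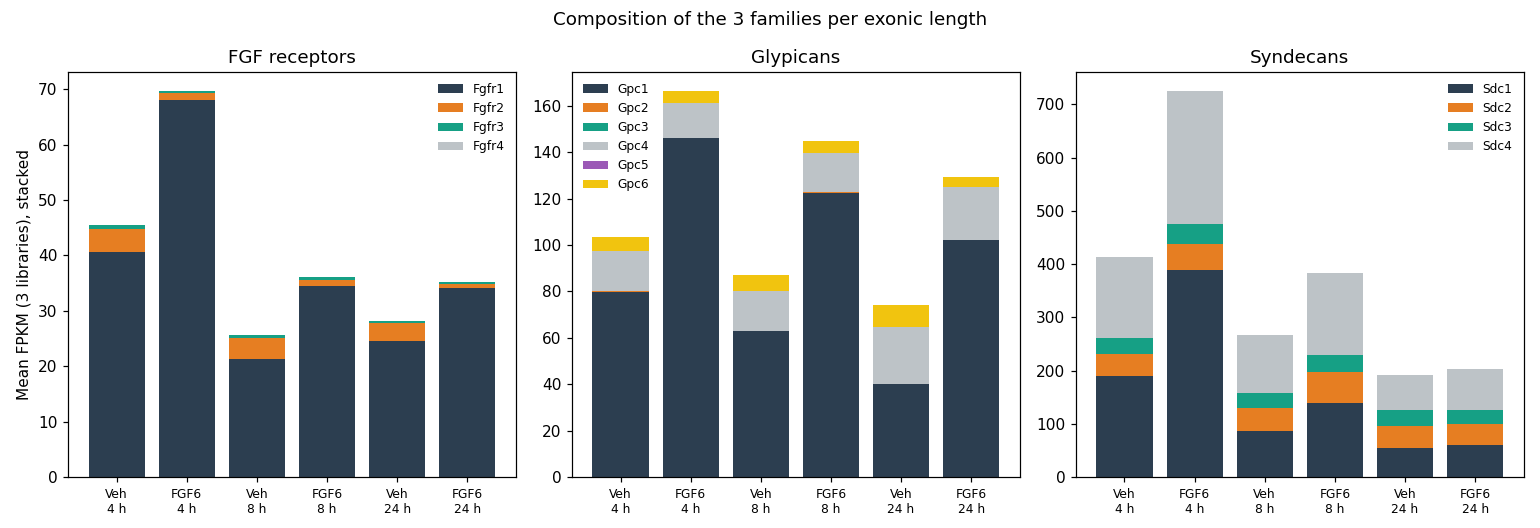
Mean FPKM of Fgfr1 to Fgfr4, of the 6 glypican genes, and of the 4 syndecan genes, stacked (vertical axes, from 0), in the 6 groups of 3 libraries (horizontal axes). Fgfr1 fills 82.8% to 97.8% of the receptor bars, which leave out Fgfrl1, Gpc1 is the largest glypican in each group, and the syndecan bars fall from 4 h to 24 h in both arms.

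Of the glypicans, Gpc1 was higher with FGF6 than with Veh, Gpc6 was lower, and Gpc4 was called at 4 h alone. Gpc1 encodes a glypican that serves as a coreceptor for FGF2 and was the most abundant glypican transcript (ENSMUSG00000034220, chr1:92831645-92860779, plus strand, 5159 exonic bases). In the Veh libraries, Gpc1 stood at 432, 406, and 399 CPM at 4 h, 337, 320.4, and 314 CPM at 8 h, and 213, 208, and 199.9 CPM at 24 h. In the FGF6 libraries, it stood at 744, 782, and 733 CPM at 4 h, 656, 626, and 614 CPM at 8 h, and 508, 526, and 545 CPM at 24 h. The lowest FGF6 library at any time, at 24 h, was above the highest Veh library, at 4 h. Expression of Gpc1 was 1.83-fold higher at 4 h, 1.95-fold at 8 h, and 2.54-fold at 24 h (log2 fold changes 0.87 ± 0.039, 0.97 ± 0.039, and 1.35 ± 0.04, edgeR adjusted p = 4.72e-16, 3.28e-17, and 2.95e-20). The effect at 24 h exceeded that at 8 h by 0.38 ± 0.055 (adjusted p = 3.07e-06). Gpc1 fell with time in both arms, from a mean of 412 to 207 CPM with Veh and from 753 to 526 CPM with FGF6 between 4 and 24 h. Gpc1 shares 977 exonic bases with Ankmy1 on the other strand, which had 0 to 4 counts per library.

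Gpc6 encodes a glypican known from skeletal growth (ENSMUSG00000058571, chr14:116925315-117976544, plus strand, 6425 exonic bases). With vehicle, expression of Gpc6 was 38.5, 41.3, and 37.5 CPM at 4 h, 41.7, 42.9, and 43.9 CPM at 8 h, and 57.6, 63.2, and 65.3 CPM at 24 h. With FGF6, the values were 33.5, 33, and 31.2 CPM at 4 h, 31.7, 32.6, and 32.4 CPM at 8 h, and 28.8, 28.3, and 29.1 CPM at 24 h. The groups were apart at each time, with the Veh libraries highest at 24 h and the FGF6 libraries lowest then. FGF6 lowered Gpc6 by 1.2-fold at 4 h, 1.33-fold at 8 h, and 2.16-fold at 24 h (log2 fold changes -0.27 ± 0.05, -0.41 ± 0.05, and -1.11 ± 0.05, edgeR adjusted p = 5.80e-05, 6.47e-08, and 1.83e-16). The difference from Veh widened between 8 and 24 h by -0.70 ± 0.07 (adjusted p = 9.92e-09), the largest change of an FGF6 effect among the 10 genes over that interval. Most of it lay in the Veh arm, which rose from a mean of 42.8 to 62 CPM, while the FGF6 arm went from 32.2 to 28.7 CPM.

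Gpc4 encodes a glypican that fat cells release and that is known to interact with the insulin receptor (ENSMUSG00000031119, chrX:52053021-52165252, minus strand, 2651 exonic bases). Vehicle libraries gave Gpc4 values of 44.6, 46.3, and 45.8 CPM at 4 h, 45.7, 44.9, and 46.6 CPM at 8 h, and 62, 65.1, and 66.6 CPM at 24 h. FGF6 libraries gave 37.6, 42.4, and 39.9 CPM at 4 h, 49.6, 43.7, and 42.2 CPM at 8 h, and 61.2, 57.9, and 63.3 CPM at 24 h. Overlap was absent only at 4 h, where FGF6 lowered Gpc4 by 1.14-fold (log2 fold change -0.19 ± 0.055, edgeR adjusted p = 0.0046), a call lost without FGF6 replicate 1 at 4 h (-0.12, adjusted p = 0.0891). The log2 differences were -0.014 ± 0.055 at 8 h and -0.086 ± 0.053 at 24 h (adjusted p = 0.833 and 0.145), and their 95% intervals ran from -0.13 to 0.099 and from -0.20 to 0.023.

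Within a library, the ratio of Gpc1 to Gpc6 per length was 13.2 ± 0.882 (SD, n = 3), 9.42 ± 0.595, and 4.18 ± 0.407 at 4, 8, and 24 h with Veh, and 28.8 ± 0.992, 24.4 ± 1.19, and 22.8 ± 0.742 with FGF6. The summed level of Gpc1, Gpc4, and Gpc6 was 103 ± 3.11, 86.7 ± 2.11, and 74.1 ± 0.497 FPKM with Veh and 166 ± 5.79, 145 ± 5.62, and 129 ± 4.15 FPKM with FGF6. Gpc4 took up 32.8 ± 1.1% of that sum in Veh at 24 h and 17.7 ± 0.644% in FGF6 at 24 h. The remaining glypican genes were near silent. Gpc3 and Gpc5 had 0 to 2 counts per library and were not tested, and Gpc2 had 8 to 72 counts and was not called in any comparison of FGF6 with Veh (adjusted p between 0.0732 and 0.724).

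Sdc1, Sdc2, and Sdc4 were higher with FGF6 at 4 and 8 h, and by 24 h the effect was smaller for Sdc1 and Sdc4. For Sdc2 it was then slightly negative, with a call that depended on single libraries. Sdc1 encodes the syndecan typical of epithelia and plasma cells and was the most abundant of the 10 transcripts per length at 4 h in both arms (ENSMUSG00000020592, chr12:8771323-8793715, plus strand, 3809 exonic bases). Sdc1 under vehicle was measured at 734, 721, and 719 CPM at 4 h, 345, 333, and 305 CPM at 8 h, and 200.4, 214, and 203 CPM at 24 h. Under FGF6 the same gene was measured at 1454, 1536, and 1448 CPM at 4 h, 545, 532, and 513 CPM at 8 h, and 229, 235, and 230.2 CPM at 24 h. The groups were apart at each time, by far the most at 4 h, and the FGF6 libraries at 24 h lay below the Veh libraries at 8 h. The FGF6 effect on Sdc1 was 2.04-fold at 4 h, 1.62-fold at 8 h, and 1.12-fold at 24 h (log2 fold changes 1.03 ± 0.038, 0.69 ± 0.038, and 0.17 ± 0.038, edgeR adjusted p = 8.66e-18, 1.55e-14, and 4.00e-04). It shrank by 0.34 ± 0.053 from 4 to 8 h and by 0.53 ± 0.054 from 8 to 24 h, as differences of -0.34 and -0.53 on the log2 scale (adjusted p = 2.67e-05 and 1.23e-08).

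Sdc4 encodes the syndecan of focal adhesions, which binds FGF2 through its chains (ENSMUSG00000017009, chr2:164424247-164443887, minus strand, 2547 exonic bases). In the Veh libraries, Sdc4 stood at 377, 398, and 397 CPM at 4 h, 290.2, 277, and 271 CPM at 8 h, and 169, 165, and 167 CPM at 24 h. In the FGF6 libraries, it stood at 627, 645, and 641 CPM at 4 h, 407, 386, and 394 CPM at 8 h, and 199, 192, and 190.2 CPM at 24 h. All FGF6 libraries lay above the Veh libraries of their time, and both arms fell with time, as for Sdc1. The FGF6 effect on Sdc4 was 1.63-, 1.41-, and 1.16-fold at 4, 8, and 24 h (log2 fold changes 0.71 ± 0.033, 0.50 ± 0.033, and 0.22 ± 0.034, edgeR adjusted p = 1.07e-15, 7.58e-13, and 3.17e-06). Its differences between times were -0.21 ± 0.047 and -0.29 ± 0.047 (adjusted p = 0.00126 and 2.01e-05).

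Sdc2 encodes the syndecan of fibroblasts and other mesenchymal cells (ENSMUSG00000022261, chr15:32920723-33034935, plus strand, 3527 exonic bases). With vehicle, expression of Sdc2 was 137, 143, and 148 CPM at 4 h, 147, 157, and 158 CPM at 8 h, and 145, 150.3, and 155 CPM at 24 h. With FGF6, the values were 169, 178, and 183 CPM at 4 h, 197, 199, and 211 CPM at 8 h, and 139, 139, and 136 CPM at 24 h. The FGF6 libraries were the higher ones at 4 and 8 h and the lower ones at 24 h, with no overlap at any of these times. The FGF6 effect on Sdc2 was 1.24-fold at 4 h and 1.32-fold at 8 h (log2 fold changes 0.31 ± 0.039 and 0.40 ± 0.039, edgeR adjusted p = 1.66e-07 and 1.31e-09). At 24 h Sdc2 was 1.09-fold lower (log2 fold change -0.12 ± 0.039, adjusted p = 0.0068), a call lost when any 1 of 4 of the 6 libraries was left out (Veh replicates 2 and 3 and FGF6 replicates 1 and 3, down to -0.058). The effect differed between 8 and 24 h by -0.52 ± 0.055 (adjusted p = 2.34e-08), and this call was kept without any 1 library.

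Sdc3, the syndecan of the nervous system and not one of the 10 genes, went the same way as Sdc2. Its log2 fold changes were 0.26 ± 0.042, 0.21 ± 0.042, and -0.15 ± 0.042 (edgeR adjusted p = 5.67e-06, 7.55e-05, and 0.00281). No value without Veh replicate 3 at 24 h is given for Sdc3, so its lower value at 24 h is not shown to be secure. The summed level of Sdc1, Sdc2, and Sdc4 was 384 ± 3.9, 239 ± 7.56, and 162 ± 1.85 FPKM at 4, 8, and 24 h with Veh and 689 ± 16.3, 352 ± 6.1, and 176 ± 2.03 FPKM with FGF6. Sdc1 made up 56.4 ± 0.724% of the sum in FGF6 at 4 h and 33.3 ± 0.932% in Veh at 24 h.

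**Figure D3:**
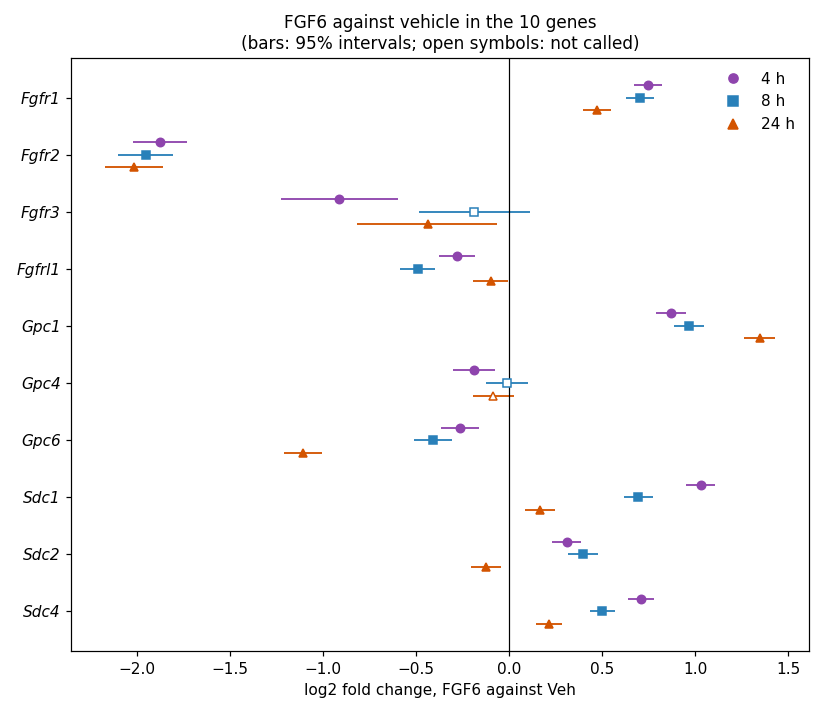
Log2 fold change of FGF6 against Veh (horizontal axis) for the 10 genes (vertical axis) at 4 h (circles), 8 h (squares), and 24 h (triangles), with bars for the 95% interval and open symbols where the adjusted p was 0.05 or more. Fgfr2 sits near -2 at the 3 times, Gpc1 moves outward to 1.35, Gpc6 to -1.11, and Sdc1 moves inward from 1.03 to 0.17.

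Stretches of sequence before RefSeq start sites of Sdc1, Sdc4, and Fgfr2 are shown for context. The FGF6 effects on Sdc1 and Sdc4 were largest at 4 h and smaller later, and Fgfr2 fell. Each stretch holds the 170 bases before the start site in the RefSeq promoter table for GRCm38.p6, written 5′ to 3′ along the gene. The GENCODE extents given above begin further 5′. The Sdc4 and Fgfr2 stretches therefore lie inside these extents, and the Sdc1 stretch overlaps its extent in part. Capitals mark GC boxes (GGGCGG on either strand) and the ETS motif (CCGGAA on either strand).
Sdc1, chr12:8771226-8771395, plus strand: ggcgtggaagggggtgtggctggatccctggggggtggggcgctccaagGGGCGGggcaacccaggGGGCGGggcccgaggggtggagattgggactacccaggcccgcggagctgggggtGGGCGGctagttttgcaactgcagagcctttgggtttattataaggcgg
Sdc4, chr2:164443189-164443358, minus strand: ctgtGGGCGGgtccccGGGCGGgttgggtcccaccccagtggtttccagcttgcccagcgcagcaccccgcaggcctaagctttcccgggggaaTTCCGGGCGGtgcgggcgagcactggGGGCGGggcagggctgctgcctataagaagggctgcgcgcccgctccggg
Fgfr2, chr7:130266809-130266978, minus strand: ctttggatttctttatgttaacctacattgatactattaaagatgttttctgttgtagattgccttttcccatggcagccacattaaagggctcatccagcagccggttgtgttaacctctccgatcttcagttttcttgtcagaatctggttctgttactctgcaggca
The Sdc1 stretch held 3 GC boxes. The Sdc4 stretch held 4 GC boxes and 1 ETS motif, which shares bases with the third of the boxes. The Fgfr2 stretch held neither. Among all 32851 windows of 300 bases in the table (250 before and 50 after the start), 35.7% held a GC box and 14.9% an ETS motif. The table had windows for 6 of the 10 genes (Fgfr2, Fgfr3, Fgfrl1, Gpc4, Sdc1, and Sdc4), and all but that of Fgfr2 held at least 1 GC box. The ETS motif was found in the windows of Sdc4 and of Fgfrl1, the one higher and the other lower with FGF6 at 4 and 8 h. The E-box CACGTG was found in the windows of Fgfr2 and Fgfrl1, at 7.15% of all windows. The AP-1 motif TGACTCA (5.2%), the cyclic AMP response motif TGACGTCA (1.79%), and the EGR motif GCGTGGGCG (0.612%) were found in the windows of 0 of the 6 genes. Such matches are letters in a window and were not tested for binding.

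The 10 transcripts also drifted in the cells that received vehicle alone. From 4 to 8 h, 3 of the 10 were higher and 4 lower, with 21.2% of all genes tested called higher and 21.7% lower. From 8 to 24 h, 4 were higher and 5 lower, against 25.5% and 23.7%. The median absolute log2 change of the 10 genes was 0.21 and 0.52 over these intervals, and that of all genes 0.19 and 0.22. These comparisons share their Veh libraries with those of FGF6 against Veh, so the values are set side by side and no overlap is computed.

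Sdc1 and Fgfr1 fell most from 4 to 8 h in vehicle, by 2.21-fold (-1.15 ± 0.038, edgeR adjusted p = 2.63e-17) and by 1.91-fold (-0.93 ± 0.037, adjusted p = 5.49e-16). Sdc4 changed by -0.48 ± 0.033 and Gpc1 by -0.35 ± 0.039 over the same interval (adjusted p = 1.34e-11 and 5.95e-08). After 8 h Sdc1, Sdc4, and Gpc1 went on falling, by log2 changes of -0.67, -0.74, and -0.65 (adjusted p = 3.81e-13, 4.89e-15, and 1.19e-12), while Fgfr1 turned and rose by 0.21 ± 0.037 (adjusted p = 3.41e-05). Fgfr3, low in any case, fell after 8 h by 1.88-fold (-0.91 ± 0.156, adjusted p = 2.74e-05).

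Fgfr2 fell after 8 h in vehicle by -0.23 ± 0.062 (edgeR adjusted p = 0.00347), a small step beside its response to FGF6. The change of Fgfr2 from 4 to 8 h was -0.13 ± 0.06 (adjusted p = 0.0776), and it was called with limma-voom and in a fit of the groups compared alone (adjusted p = 0.03 and 0.0217). Gpc6 and Gpc4 rose late in vehicle, by 1.45-fold and 1.41-fold from 8 to 24 h (0.53 ± 0.047 and 0.50 ± 0.053, adjusted p = 1.12e-09 and 2.78e-08). Gpc4 reached a similar level at 24 h in the FGF6 arm, and Gpc6 did not. From 4 to 8 h Gpc6 changed by 0.13 ± 0.049 (adjusted p = 0.0326), a call lost with DESeq2, with no low-count filter, and without any 1 of 4 of the 6 libraries (Veh 4 h replicates 1 and 3 and Veh 8 h replicates 2 and 3), and Gpc4 by 0.004 ± 0.054 (adjusted p = 0.967).

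Fgfrl1 rose in vehicle from 4 to 8 h (0.24 ± 0.045, edgeR adjusted p = 1.05e-04). Its later step was 0.12 ± 0.045 (adjusted p = 0.0302), and was lost with library sizes alone (0.042), upper-quartile factors, no low-count filter, and without any 1 of 4 of the 6 libraries (Veh 8 h replicates 1 and 3 and Veh 24 h replicates 2 and 3). The changes of Sdc2 in vehicle were 0.11 ± 0.039 and -0.035 ± 0.039 (adjusted p = 0.0275 and 0.48), the first with overlapping libraries and lost without any 1 of 4 of the 6 (replicates 1 and 2 at 4 h and 2 and 3 at 8 h). The second was called with library sizes alone, where Sdc2 fell by 0.113 (adjusted p = 0.0123).

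The order of the 10 transcripts per length turned over with time and treatment. In Veh at 4 h it ran Sdc1 (190.3 ± 2.16 FPKM, SD, n = 3), Sdc4 (153 ± 4.68), Gpc1 (79.9 ± 3.4), Fgfr1 (40.6 ± 0.946), Sdc2 (40.5 ± 1.5), Fgfrl1 (21.7 ± 0.654), Gpc4 (17.2 ± 0.34), Gpc6 (6.09 ± 0.308), Fgfr2 (4.17 ± 0.0557), and Fgfr3 (0.701 ± 0.126). Fgfr1 and Sdc2 overlapped there, and the other neighbors did not. In Veh at 24 h, Sdc4 led with 65.6 ± 0.927 FPKM before Sdc1 with 54.1 ± 1.93 FPKM, and the libraries of Sdc2 and Gpc1 and those of Fgfr1 and Gpc4 overlapped. In FGF6 at 24 h, Gpc1 led with 102 ± 3.59 FPKM, ahead of Sdc4 with 76.1 ± 1.77 FPKM and Sdc1 with 60.7 ± 0.862 FPKM, and no neighbors overlapped. Gpc6, Fgfr2, and Fgfr3 held the last 3 places in each of the 6 groups. These orders rest on the annotated exonic length, which is longer than the transcript in use where a gene has many models.

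The FGF6 effect itself changed from 4 to 8 h for 4 of the 10 genes, against 30.6% of all genes, and from 8 to 24 h for 7 of the 10, against 45.1% of all genes. Besides those given above, the effect on Fgfr1 shrank from 8 to 24 h by a log2 difference of -0.23 ± 0.052 (edgeR adjusted p = 7.06e-04). The effect on Fgfrl1 deepened from 4 to 8 h by -0.21 ± 0.066 (adjusted p = 0.0169), a call lost without FGF6 replicate 1 at 4 h or without FGF6 replicate 2 at 8 h, and then shrank from 8 to 24 h by 0.39 ± 0.064 (adjusted p = 1.90e-05). The effect on Gpc4 differed between 4 and 8 h by 0.18 ± 0.078 (adjusted p = 0.0942), and this was called with library sizes alone (0.212, adjusted p = 0.0312) and without FGF6 replicate 2 at 4 h or FGF6 replicate 3 at 8 h.

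The genes whose pattern over the 6 groups was most like those of the glypican and receptor with the largest changes at 24 h were found by the root mean square distance of centered log2 CPM, among 12298 genes with a mean of at least 1 CPM. For Gpc1 they were Nop56 (distance 0.085), Lyar (0.091), and Ebna1bp2 (0.093), beside a range of Gpc1 itself of 1.86 on the log2 scale. For Fgfr2 they were Peli3 (0.101), Smad9 (0.176), and Trim6 (0.191), beside a range of 2.37. This likeness is a description over 6 group means.

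Around the 10 genes, the other genes of the pathway were read from lists by role. Ligand genes came first. Of 18 secreted FGF genes, 6 had enough counts for a test, and 4 were higher and 1 lower at 4 h, 4 higher and 2 lower at 8 h, and 3 higher and 1 lower at 24 h. These counts, and those of the lists that follow, stand beside 28.6% of all genes called higher and 34.2% lower at 4 h, 32.4% and 38.4% at 8 h, and 35.9% and 37.9% at 24 h, so that counts alone say little about a list, as for the 10 genes. The median log2 fold change of the 6 ligand genes was 1.35, 0.98, and 0.25 at 4, 8, and 24 h, beside -0.048, -0.05, and -0.022 over all genes tested. Fgf18, 1 of the 6, had at most 3 counts per Veh library and 18 to 24 in FGF6 at 4 h. It passed the count filter through FGF6 groups alone, so its rise is no separate evidence, and the counts and medians of this list include it. Fgf2, the broadly acting ligand that binds heparan sulfate, had 5.03, 4.2, and 4.11 CPM in the Veh libraries at 4 h and 82.7, 82.8, and 89.5 CPM in the FGF6 libraries. At 24 h it had 2.91, 2.47, and 2.14 CPM with Veh and 43.9, 39.5, and 43.7 CPM with FGF6. Each FGF6 library was far above each Veh library, and the log2 fold changes of Fgf2 were 4.26 ± 0.077, 4.99 ± 0.094, and 4.07 ± 0.092 at 4, 8, and 24 h (edgeR adjusted p = 4.90e-24, 6.34e-24, and 1.21e-22). Fgf2 shares 640 exonic bases with Nudt6 on the other strand, which had 22 to 82 counts per library. Fgf1 had a mean of 0.419 CPM with Veh and 2.2 CPM with FGF6 at 4 h, a difference of 2.38 ± 0.317 (adjusted p = 3.96e-07). At 24 h its difference was -0.035 (adjusted p = 0.928). Its mean over all libraries reached the limit of 1 CPM for naming only through FGF6 at 4 and 8 h, so its rise is no separate evidence. Fgf10, a ligand of the IIIb form of Fgfr2, was lower at 4 h (-0.89 ± 0.074) and at 8 h (-0.27 ± 0.068) and higher at 24 h (0.53 ± 0.065, adjusted p = 9.04e-11, 8.72e-04, and 7.32e-08).

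Among 8 genes for proteins that bind FGFs or their receptors, 7 were tested, of which 3 were higher and 2 lower at 4 h, 3 higher and 0 lower at 8 h, and 5 higher and 2 lower at 24 h, with medians of 0.13, 0.10, and 0.39. Flrt3, a transmembrane partner of FGF receptors, was higher at each time, with log2 fold changes of 2.59 ± 0.372, 1.92 ± 0.253, and 1.59 ± 0.215 (edgeR adjusted p = 1.22e-06, 2.43e-07, and 3.11e-07) at a level of at most 4.48 CPM. Its relative Flrt1 was lower at 24 h (-0.87 ± 0.252, adjusted p = 0.00337), and Cdh2, the cadherin that binds Fgfr1, was higher (0.51 ± 0.048, adjusted p = 5.16e-10). The coreceptor genes of endocrine FGFs were close to absent. Kl had 0 or 1 count per library, and Klb had 1 to 22. Klb passed the count filter through FGF6 at 4 h, its highest group, with 10 to 22 counts. Its difference of 1.43 ± 0.468 at 4 h (adjusted p = 0.0102) rests on few counts and on that same group, so it is no separate evidence.

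Behind the receptors, 19 adaptor and ERK cascade genes were all tested, and 11 were higher and 7 lower at 24 h. At 4 h and at 8 h, 8 were higher and 7 lower, and the medians were -0.04, 0.10, and 0.26 at 4, 8, and 24 h. Gab1, the docking protein downstream of the receptor substrate, was lower at each time, with log2 fold changes of -0.995 ± 0.051, -1.09 ± 0.05, and -1.28 ± 0.052 (edgeR adjusted p = 8.66e-15, 5.04e-16, and 2.84e-17). Cbl, a ubiquitin ligase for receptors, was higher by 0.53 ± 0.062 at 24 h (adjusted p = 2.43e-08).

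The enzymes that build heparan sulfate on the core proteins did not move as a block. Of 11 chain synthesis genes, 6 were higher and 2 lower at 4 h, 4 higher and 3 lower at 8 h, and 4 higher and 5 lower at 24 h, with medians of 0.24, 0.072, and -0.017. Xylt1, which starts the chain on the core protein, had 47.9, 51.2, and 49.4 CPM with Veh and 186, 187, and 192 CPM with FGF6 at 8 h. The groups were apart at each time, and its log2 fold changes were 1.77 ± 0.032, 1.93 ± 0.034, and 1.22 ± 0.033 (edgeR adjusted p = 5.49e-24, 1.77e-24, and 5.79e-21). B3galt6, of the linker, rose by 0.93 ± 0.067 at 8 h (adjusted p = 4.10e-12). Ext1, of the polymerase, was higher at 8 h (0.74 ± 0.035) and lower at 24 h (-0.34 ± 0.036, adjusted p = 9.69e-16 and 5.59e-09).

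Of 16 genes that modify the chain, 10 were tested, with 5 higher and 3 lower at 4 h, 4 and 4 at 8 h, and 5 and 3 at 24 h, with medians of 0.09, 0.079, and 0.08. Ndst3, an N-deacetylase and N-sulfotransferase, had 2.59, 1.66, and 2.57 CPM with Veh and 42.6, 38.3, and 35.9 CPM with FGF6 at 24 h. All FGF6 libraries stood well above the Veh libraries, and the log2 fold changes of Ndst3 were 2.98 ± 0.117, 4.05 ± 0.108, and 4.12 ± 0.112 (edgeR adjusted p = 3.39e-17, 5.93e-21, and 5.23e-21). Its relative Ndst1 rose by 0.39 ± 0.031 at 4 h, and Hs6st2, a 6-O-sulfotransferase, fell by 0.60 ± 0.044 at 24 h (adjusted p = 5.06e-11 and 4.56e-12).

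Of 10 genes that trim the chain or shed the core protein, 8 were tested. At 4 h and at 8 h, 1 was higher and 4 were lower, with medians of -0.071 and -0.30. At 24 h, 1 was higher and 7 were lower, where 37.9% of all genes were called lower, and the median was -1.33. Sulf2, an extracellular 6-O-endosulfatase, had 205, 219.6, and 209.6 CPM with Veh and 58.1, 60.2, and 63.1 CPM with FGF6 at 24 h. No library overlapped, with log2 fold changes of Sulf2 of -0.14 ± 0.037, -0.43 ± 0.038, and -1.81 ± 0.039 (edgeR adjusted p = 0.00276, 1.80e-10, and 5.93e-23). Hpse, the heparanase that cuts the chain, and Mmp14, a membrane protease that sheds syndecans, changed by -1.40 ± 0.104 and -1.34 ± 0.033 at 24 h (adjusted p = 5.98e-12 and 6.58e-22). Sulf2 shares 154 exonic bases with Ncoa3 on the other strand, which is expressed in these cells.

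Of 4 other carriers of heparan sulfate, 2 were higher and 2 lower at 4 h. At 8 h and at 24 h, 3 were lower and 1 was not called, where 38.4% and 37.9% of all genes were called lower. The medians were -0.052, -0.24, and -0.997. At 24 h, Tgfbr3, the betaglycan coreceptor, changed by -1.41 ± 0.034, Hspg2, the basement membrane proteoglycan perlecan, by -1.16 ± 0.051, and Agrn, agrin, by -0.83 ± 0.059 (edgeR adjusted p = 5.67e-22, 1.19e-16, and 2.34e-12). All 3 had lower values in each FGF6 library than in any Veh library at 24 h. Without Veh replicate 3 at 24 h, the pathway genes named here with a call at 24 h were called in the same direction, 6 in place of 7 trimming and shedding genes and 3 in place of 5 chain synthesis genes were called lower, 2 in place of 3 ligand genes were called higher, and of the adaptor and ERK cascade genes 10 were higher and 6 lower.

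**Figure D4:**
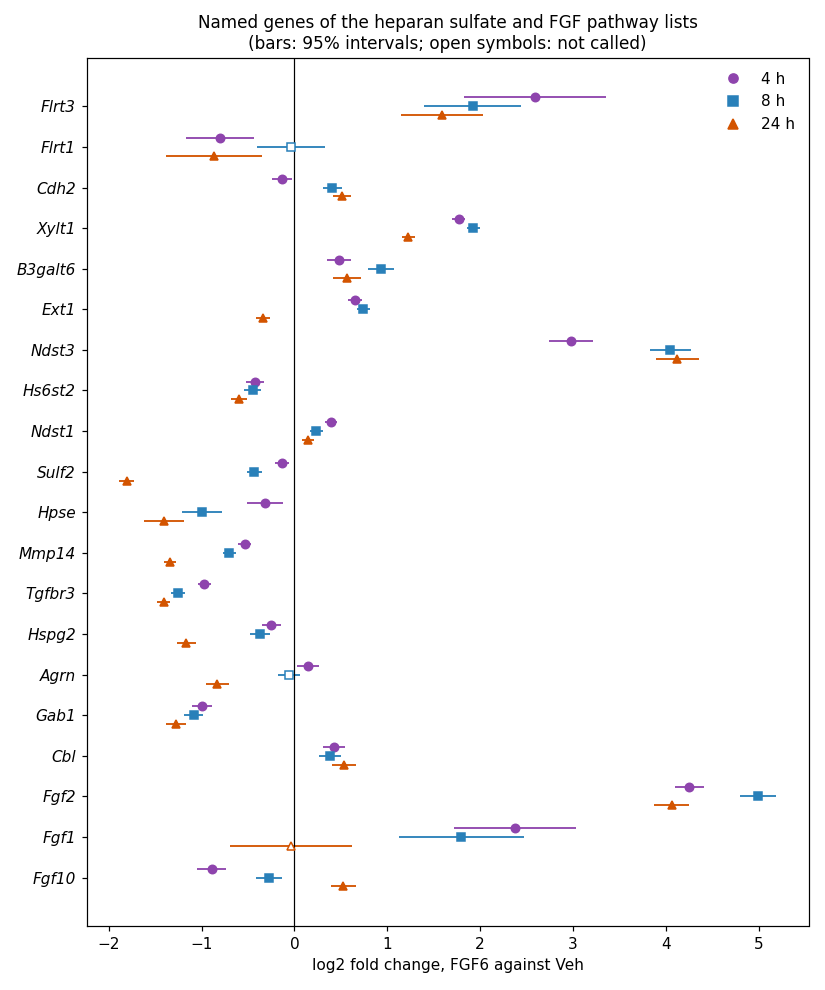
Log2 fold change of FGF6 against Veh (horizontal axis) for named genes of the pathway lists (vertical axis) at 4 h (circles), 8 h (squares), and 24 h (triangles), with bars for the 95% interval and open symbols where the adjusted p was 0.05 or more. Fgf2 reaches 4.99 and Ndst3 4.12, while Sulf2 moves from -0.14 at 4 h to -1.81 at 24 h.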

How the data were processed

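RNA was sequenced from 18 libraries of immortalized brown preadipocytes. The authors used STAR for alignment to GRCm38.p4 and Subread featureCounts for GENCODE genes, and deposited raw counts per gene. Versions, annotation release, and strand setting are not given in the sources used here, so reads of overlapping genes may be misassigned. Positions and lengths came from GENCODE release M21 (98.5% of identifiers matched). Genes were kept by filterByExpr (edgeR 4.0.16, R 4.3.3), scaled by TMM (factors 0.951 to 1.05), and fitted as 6 group means with the quasi-likelihood test and Benjamini-Hochberg adjustment. The study's limma-voom and its FDR of 0.25 were alternatives. In simulated counts for FGF6 against Veh at 24 h, 176 of 200 changed genes (88%) were recovered, with 5 false calls among 14433 genes. Only these 200 genes were changed there, above a count limit, up and down in equal number, and no library stood apart. In the data most genes were called, so these rates need not carry over. The floor of 3 counts was 0.0905 to 0.126 CPM per library (counting error only). The smallest exact permutation p for 3 libraries against 3 is 0.1. Of each list, up to 3 genes with the largest called change and a mean of at least 1 CPM were named, except 1 gene that is not reported here. The 10 genes and the lists were chosen with earlier results of these data known. Further alternatives were DESeq2 1.42.0, library sizes alone, upper-quartile factors, no low-count filter, a minimum of 10 counts per library, only the groups compared, the replicate block, at least 2-fold, and leaving out each library (for the pathway lists, Veh replicate 3 at 24 h alone, chosen after seeing the data) (limma 3.58.1 for voom).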

Additional observations from a re-analysis of the deposited data

Results flagged for a closer look

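The FGF6 effect differed between time points, by edgeR's test of the difference itself, in 11 cases among the 10 genes. From 4 to 8 h these were 4 of the 10 genes, against 30.6% of all genes tested. From 8 to 24 h they were 7 of the 10, against 45.1%. The genes were chosen with earlier results of these data known, so these counts are a description alone. Values are changes of the log2 fold change at the later time relative to the earlier one, with adjusted p-values over all genes tested. Between 4 and 8 h, the effect on Fgfr3 changed by 0.725 (adjusted p = 0.0101), on Fgfrl1 by -0.209 (0.0169), on Sdc1 by -0.335 (2.67e-05), and on Sdc4 by -0.208 (0.00126). Between 8 and 24 h, it changed for Fgfr1 by -0.23 (0.000706), for Fgfrl1 by 0.392 (1.90e-05), for Gpc1 by 0.381 (3.07e-06), for Gpc6 by -0.7 (9.92e-09), for Sdc1 by -0.528 (1.23e-08), for Sdc2 by -0.52 (2.34e-08), and for Sdc4 by -0.286 (2.01e-05). Of these, Sdc2 went from higher than Veh at 8 h to slightly lower at 24 h (-0.12). Its call at 24 h was lost without any 1 of 4 of the 6 libraries, so the turn below Veh is not secure. The effect on Fgfrl1 between 4 and 8 h was lost without FGF6 replicate 1 at 4 h (-0.184, adjusted p = 0.058) and without FGF6 replicate 2 at 8 h (-0.158, adjusted p = 0.0744). The other 10 differences of the effect were kept without any 1 library.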

How the results depend on the processing

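Of 70 values (10 genes in 7 comparisons), 54 were called, and 46 of these were called under every alternative other than the 2-fold threshold, each left-out library included. The 8 that were not, 3 of Fgfrl1, 2 of Sdc2, and 1 each of Fgfr3, Gpc4, and Gpc6, are given with their settings in the report. The 54 called values kept their direction under all alternatives run. Of the 16 values not called, 3 were called under an alternative other than the adjusted p under 0.25 (Fgfr2 in Veh from 4 to 8 h, Sdc2 in Veh from 8 to 24 h, and Gpc4 for the difference between 4 and 8 h). Values that changed direction were not called: Gpc4 at 8 h became 0.0242 with DESeq2, 0.00438 with at least 10 counts in every library, 0.0205 with only the groups compared, and -0.0876 to 0.0745 with 1 library left out, and Gpc4 in Veh from 4 to 8 h became -0.00828 with DESeq2 and -0.0129 to 0.0163 with 1 library left out. With 1 library left out, the differences of the FGF6 effect between 8 and 24 h ran from -0.132 to 0.0683 for Fgfr2 and from -0.117 to 0.00159 for Gpc4.

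A threshold of at least 2-fold left 1710, 2759, and 3431 genes for FGF6 against Veh at 4, 8, and 24 h, 341 and 675 for the Veh intervals, and 526 and 1280 for the differences of the effect. Of the 10 genes it left 2, 1, and 3, then 1 and 0, then 0 and 0. An adjusted p under 0.25 gave 7397 genes and 8 of the 10 for the difference between 4 and 8 h. With library sizes alone, the median log2 change of all genes moved by -0.101 at 4 h, and the share of calls that were higher went from 45.5% to 33.3% there and from 51.8% to 36.4% in Veh from 8 to 24 h. The causes of these shifts were not tested. Replicate numbers did not pair the libraries: the correlation of deviations from the group means was -0.028 to 0.049 in 9 pairs, and 4 of 9 libraries correlated best with their own number. With the replicate block, Fgfrl1 at 24 h was no longer called (-0.1, adjusted p = 0.0548), and the other 69 values kept their call.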
